A study of Mus musculus with 9 samples.

Results

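The 35 genes described here encode the enzymes that build cholesterol and fatty acids, with the proteins that set their rate, and were taken by symbol from a deposited expression table of 15158 genes. All 35 were in the table. They comprise 18 genes of sterol synthesis, 5 regulators and a sterol carrier (6 genes), and 11 genes of fatty acid synthesis. RNA was sequenced from luminal epithelium of the mouse uterus, the layer lining the uterine cavity, which had been cut out by laser capture on pregnancy day 4 from females raised to 8 weeks of age. The controls, Wnt7acre, carried a cre recombinase driven by Wnt7a, a gene of the uterine epithelium. The other genotypes carried the same cre with 1 further allele. In ePRAoe (Wnt7acre/+PgrALsL/+) that allele lets cre switch on progesterone receptor isoform A, and in ePRBoe (Wnt7acre/+PgrBLsL/+) isoform B. Each genotype had 3 libraries, numbered as bioreplicates without naming an animal, so the p-values below measure only how far these samples spread, which may be technical in part. The comparisons ask how each isoform in excess bears on this epithelium.

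Cholesterol is made from acetyl-CoA through mevalonate, isoprenoids, squalene and lanosterol. When sterols run low in the endoplasmic reticulum, the escort protein SCAP lets the transcription factors SREBP-1 and SREBP-2 travel to the Golgi, where they are cut and freed to enter the nucleus, and the INSIG proteins hold this complex back when sterols are plentiful. Fatty acids are built from the same acetyl-CoA, which ACLY and ACSS2 supply, ACACA carboxylates and FASN assembles, before elongases lengthen the chains and desaturases place double bonds. Among the products of the desaturases and elongases is arachidonic acid, the precursor of the prostaglandins that the uterus needs at implantation.

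Promoter sequences are shown because sterol-responsive genes are known to be read by SREBP beside the factors NF-Y and Sp1. For 28 of the 35 genes RefSeq (GRCm38.p6) gave a promoter, and the 250 bases before the start were searched on both strands. The sterol element TCACNCCAC was found in 1 of the 28 (3.57%), Hmgcs1, against 1.22% of 27025 genes. The NF-Y box CCAAT was in 22 (78.6%, against 37.5%), and the GC box GGGCGG, the letters Sp1 is known to bind, in 23 (82.1%, against 35.4%). The 27025 genes were not limited to those expressed here, as all 35 genes are, and no expressed-gene share was computed. A gene with several promoters counted if any of them matched. The core of the steroid receptor palindrome, ACANNNTGT, was in 1 (3.57%, against 6.76%), Acat2. A match is a description of letters, and no match says only that these letters are not in this window. The 4 windows below are Hmgcs1 (chr13:119690101-119690350, forward strand), which holds the sterol element, and 3 genes that changed in ePRAoe: Mvd (chr8:122443423-122443672, reverse strand), Acly (chr11:100528001-100528250, reverse strand) and Fasn (chr11:120824548-120824797, reverse strand). Each is printed 5′ to 3′ towards the gene, with capitals on the matches to the sterol element, NF-Y box or GC box on either strand.
Hmgcs1: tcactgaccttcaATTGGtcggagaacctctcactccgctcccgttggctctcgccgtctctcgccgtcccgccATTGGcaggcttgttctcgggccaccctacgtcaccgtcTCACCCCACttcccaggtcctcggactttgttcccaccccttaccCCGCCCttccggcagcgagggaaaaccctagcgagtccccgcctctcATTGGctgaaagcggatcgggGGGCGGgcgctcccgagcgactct
Mvd: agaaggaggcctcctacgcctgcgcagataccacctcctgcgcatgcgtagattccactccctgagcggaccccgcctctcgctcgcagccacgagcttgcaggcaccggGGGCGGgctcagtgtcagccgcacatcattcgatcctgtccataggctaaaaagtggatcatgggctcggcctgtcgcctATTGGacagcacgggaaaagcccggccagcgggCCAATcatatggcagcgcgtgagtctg
Acly: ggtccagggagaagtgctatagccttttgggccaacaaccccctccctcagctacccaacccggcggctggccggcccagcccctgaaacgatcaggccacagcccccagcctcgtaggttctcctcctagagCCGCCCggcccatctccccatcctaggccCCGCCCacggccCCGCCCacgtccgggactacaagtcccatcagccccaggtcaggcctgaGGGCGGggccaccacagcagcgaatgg
Fasn: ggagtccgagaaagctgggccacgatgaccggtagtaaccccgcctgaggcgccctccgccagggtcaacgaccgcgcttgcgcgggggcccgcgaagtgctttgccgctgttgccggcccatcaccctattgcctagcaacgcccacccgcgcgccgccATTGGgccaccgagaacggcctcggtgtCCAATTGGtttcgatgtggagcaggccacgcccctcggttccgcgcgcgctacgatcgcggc

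Hmgcs1 held its sterol element 128 bases before the start, with 3 NF-Y boxes and 2 GC boxes around it. Mvd held 2 NF-Y boxes and 1 GC box, Acly 4 GC boxes and no NF-Y box, and Fasn 3 NF-Y boxes, 2 of them overlapping on opposite strands. In ePRAoe Mvd and Acly fell and Fasn rose, with values given below.

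Values are FPKM (fragments counted per kilobase of a gene, on a common depth scale), as the authors deposited them, and are compared between genes on that per-length scale. Differences are on the log2(FPKM + 1) scale from limma, fitted to 12347 genes in all 9 libraries with terms for genotype and sequencing run, and a gene is said to rise or fall only where the adjusted p (Benjamini-Hochberg over all 12347) was under 0.05. Luminal epithelium was the labelled tissue, and all 20 epithelial markers were detected, with Epcam at 125 to 249 FPKM across libraries. Pgr, the gene overexpressed by design, lay at 3.82 to 17.4 FPKM in Wnt7acre, in ePRAoe 41.7 to 49.5 and in ePRBoe 38.1 to 45.9. The low values fell on even steps, read here as whole reads, with 1 step worth the same in every library within 0.077%. With annotated gene lengths this implied about 11.3 M reads per library (quartiles over genes 8.33 M and 13.1 M). Why libraries of different runs share a scale is not given in the sources used here, so these may not be the reads sequenced. Read numbers below count these steps. The runs were not balanced: all 3 ePRBoe libraries, Wnt7acre replicate 3 and ePRAoe replicate 2 were in run NOVA0134, Wnt7acre replicate 2 and ePRAoe replicate 3 in NS50967, and replicate 1 of both in NS50999. Of the 15158 rows deposited, 4239 stood out of alphabetical order, and 10 of the 35 genes were among them (Acat2, Pmvk, Mvd, Fdft1, Ebp, Stard4, Acly, Acaca, Scd1 and Elovl5). Of the 1998 genes called in ePRAoe 1896 were in such rows, as were 797 of the 1098 called in ePRBoe. Gene lengths implied by the read steps followed annotated lengths across genes in those rows (Spearman's rho 0.784, 355 genes) and in the ordered rows (0.726, 1950 genes).

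The level of the 35 genes spanned from Idi1, an isomerase of the isoprenoid steps, with a mean of 0.922 FPKM over the 9 libraries, to Elovl5, the elongase of polyunsaturated chains, with 233.8 FPKM. After Elovl5 came Scd2, a stearoyl-CoA desaturase, with 136 FPKM, Pmvk (71.1), Fasn (38.4) and Dhcr7 (36.5), which makes the last reduction to cholesterol. All 35 genes passed the filter on low values, Idi1 only through the overexpressing genotypes. Adipocytes are another possible source of fatty acid enzymes. Of 12 adipocyte markers 8 were not among the symbols of the table, so their level is not known. The other 4 summed to 0.79 to 10.1 FPKM in Wnt7acre, in ePRAoe 1.6 to 2.21 and in ePRBoe 2.16 to 3.82. Among the Wnt7acre libraries, replicate 1 held the highest Fasn, Dhcr7, Fdps and Acss2.

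**Figure D1:**
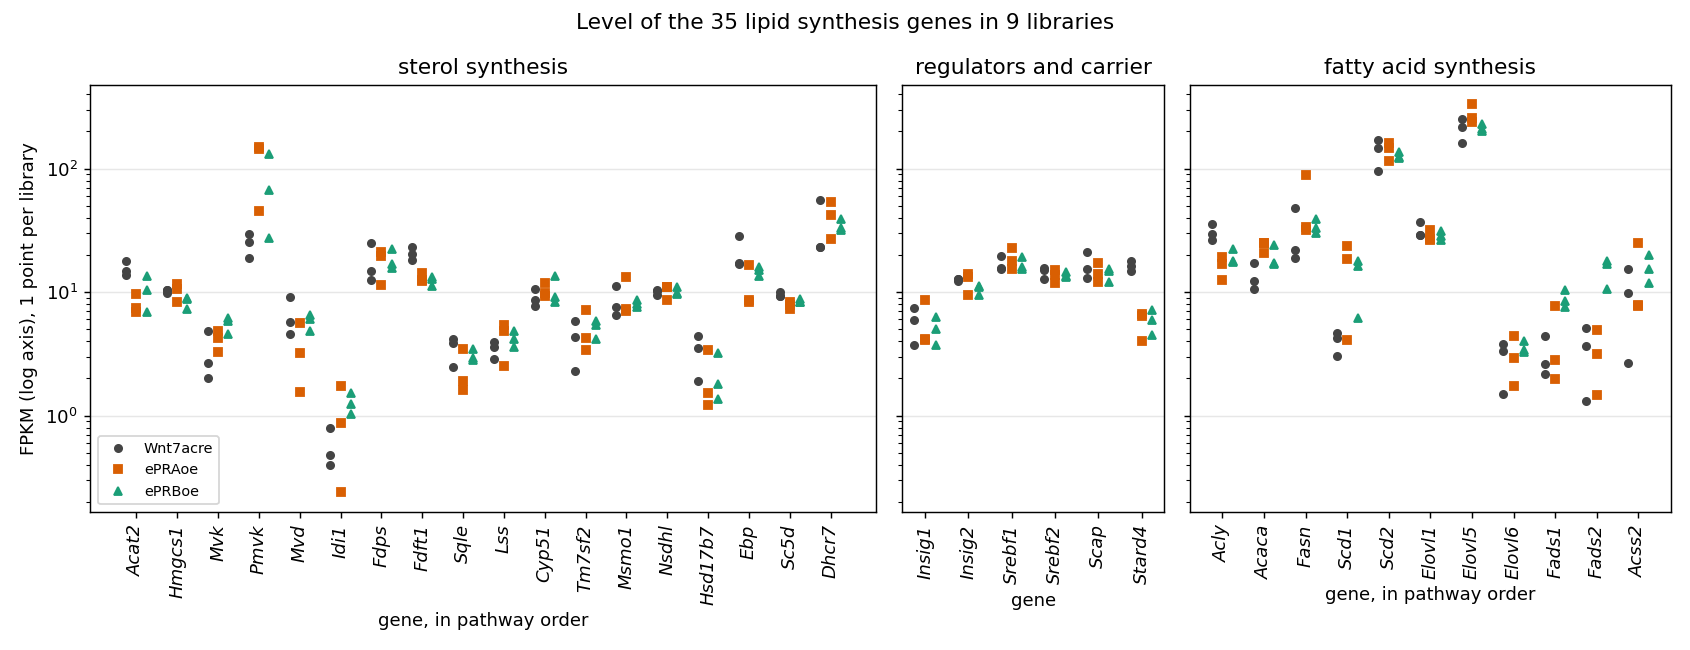
FPKM (log axis) of each of the 35 genes in the 9 libraries, 1 point per library, coloured by genotype and set out by role in pathway order. Elovl5 and Scd2 lie at 95.8 FPKM or more in all libraries and Idi1 at 1.72 or less, and for most genes the 3 genotypes overlap.

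In ePRAoe 2 of the 35 genes rose (Acaca and Fasn) and 4 fell (Mvd, Fdft1, Stard4 and Acly). Over all genes tested 7.2% rose and 8.98% fell, so both counts were close to what the whole table showed. In ePRBoe 3 of 35 rose (Fasn, Fads1 and Fads2) and 1 fell (Stard4), where 6.41% of all genes rose and 2.48% fell, again close. The median difference of the 35 was 0.01 in ePRAoe and 0.11 in ePRBoe, beside −0.03 and 0.10 over all genes. At an unadjusted p under 0.05 there were 11 of the 35 genes in ePRAoe, beside 31.9% of all genes tested, and 8 of the 35 in ePRBoe, beside 25.8%, so neither share exceeded that of the whole table. All 3 libraries of ePRAoe were above all 3 of Wnt7acre for 2 genes (12.6% of all genes) and below them for 6 (16.2%), and for ePRBoe this held for 4 (23.5%) and 8 (16.3%). Both comparisons share the Wnt7acre libraries. Between ePRBoe and ePRAoe limma called 0 of 35 genes (0.316% of all genes were higher and 0.0081% lower), with 6 at an unadjusted p under 0.05, beside 18.7% of all genes tested, and no other tool was run. All 3 ePRBoe libraries were above all ePRAoe libraries for 1 gene, Fads2 (16.8% of all genes), and below them for 1, Elovl5 (5.8%).

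**Figure D2:**
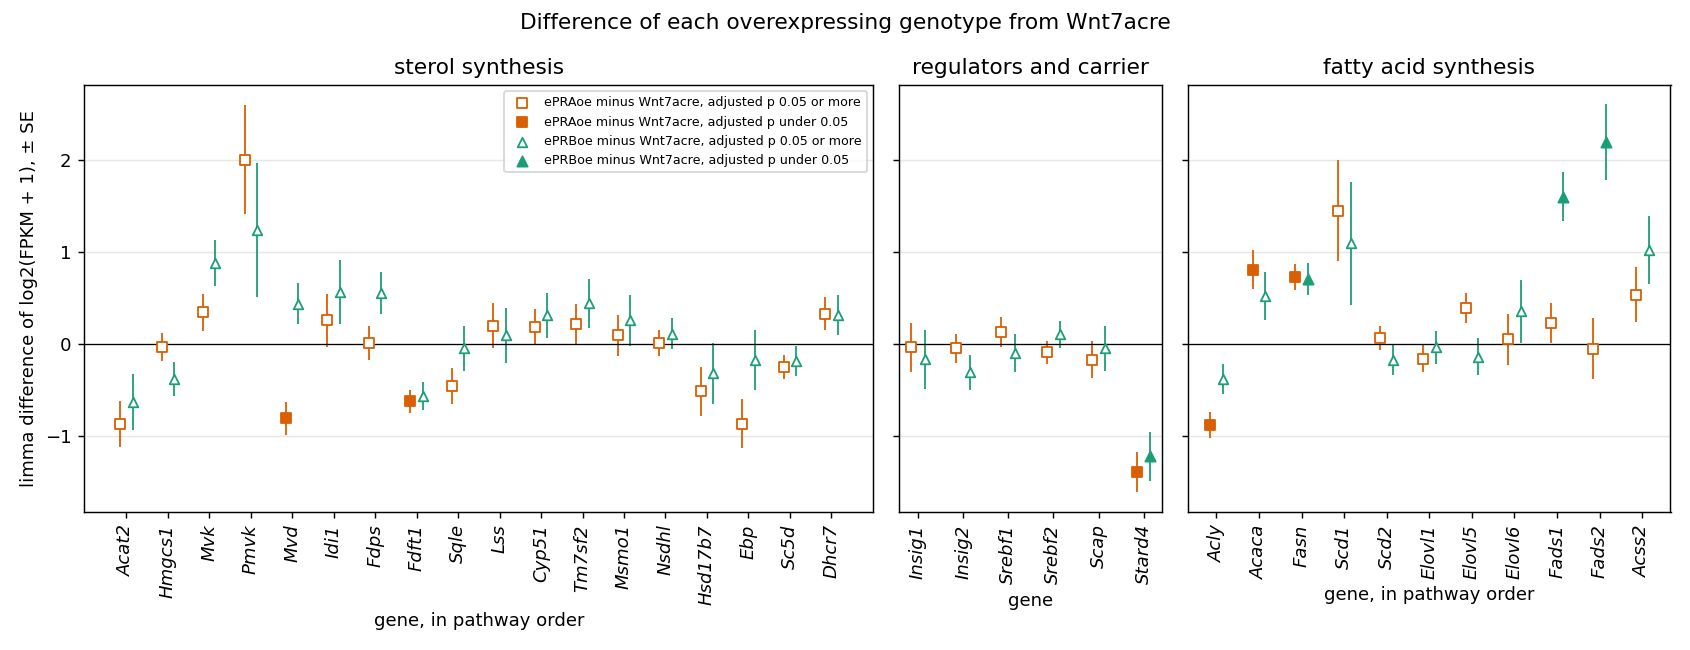
Difference of log2(FPKM + 1) from Wnt7acre (limma estimate ± SE) for each gene in ePRAoe (squares) and ePRBoe (triangles), with filled symbols where the adjusted p was under 0.05. Stard4 is the lowest of the regulators in both genotypes at −1.40 and −1.22, and Fads2 stands at 2.20 in ePRBoe and −0.05 in ePRAoe.

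Among the 18 sterol synthesis genes, 2 fell in ePRAoe (Mvd and Fdft1) and 0 rose, and in ePRBoe 0 passed in either direction, with 3 at an unadjusted p under 0.05. Their median difference was 0.01 in ePRAoe and 0.19 in ePRBoe, 10 and 11 of the 18 being positive. Over all genes tested 7.2% rose and 8.98% fell in ePRAoe. In ePRBoe 6.41% rose and 2.48% fell, with 25.8% at an unadjusted p under 0.05. The medians over all genes were −0.03 and 0.10, with 47% and 59.5% positive. The early part of the pathway contained genes on both sides. Acat2, which joins acetyl-CoA units in the cytosol, was at 17.8, 14.9 and 13.7 FPKM in Wnt7acre, 6.96, 9.67 and 7.47 in ePRAoe and 13.4, 6.88 and 10.4 in ePRBoe (here and below in the order of replicates 1, 2 and 3). Every library of the overexpressing genotypes was below every Wnt7acre library, by a narrow margin for ePRBoe replicate 1. The differences did not pass (−0.87, SE 0.25, adjusted p = 0.0521 in ePRAoe, and −0.63, SE 0.30, adjusted p = 0.241 in ePRBoe). The ePRAoe value passed without the run term (adjusted p = 0.0394) and when genes averaging under 5 FPKM were left out of the test (0.049).

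Hmgcs1, the synthase that makes HMG-CoA and the only gene with the sterol element in its printed window, was at 9.88, 10.5 and 10.5 FPKM in Wnt7acre, 10.5, 11.6 and 8.25 in ePRAoe and 7.31, 9.03 and 8.78 in ePRBoe. Only ePRBoe lay wholly below Wnt7acre, and neither difference passed (−0.03, adjusted p = 0.914, and −0.38, adjusted p = 0.257). Pmvk, the kinase that adds the second phosphate to mevalonate, was at 29.4, 25.3 and 18.9 FPKM in Wnt7acre, 45.8, 146 and 149 in ePRAoe and 66.7, 27.6 and 131 in ePRBoe. All ePRAoe libraries were above Wnt7acre, with replicate 1 far below the other two, and ePRBoe overlapped. Its difference in ePRAoe was the largest positive one of the 35 genes but also had the largest SE (2.00, SE 0.59, adjusted p = 0.0588), and it passed without ePRAoe replicate 1 (2.69, adjusted p = 0.0264). Mvk, the kinase of the step before, had means of 3.17 ± 1.47, 4.14 ± 0.797 and 5.53 ± 0.812 FPKM (SD, n = 3) in Wnt7acre, ePRAoe and ePRBoe, and its ePRBoe difference of 0.88 (SE 0.25) had an adjusted p of 0.0685.

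Mvd, the decarboxylase that yields isopentenyl diphosphate, fell in ePRAoe. It was at 5.71, 9.13 and 4.57 FPKM in Wnt7acre, 3.22, 1.55 and 5.59 in ePRAoe and 6.07, 4.81 and 6.53 in ePRBoe, or 38 to 224 reads a library. The groups overlapped, since ePRAoe replicate 3 was above Wnt7acre replicate 3, but within each sequencing run ePRAoe was below Wnt7acre, with differences of −1.13 in NOVA0134, −0.62 in NS50967 and −0.67 in NS50999. The fitted difference was −0.81 (SE 0.18, 1.75-fold lower, limma adjusted p = 0.0234). In ePRBoe it was 0.44 (adjusted p = 0.259), and ePRBoe stood above ePRAoe by 1.25 (SE 0.22, adjusted p = 0.0706). The mean FPKM went the other way between ePRBoe and its control, at 6.47 in Wnt7acre and 5.80 in ePRBoe. Within NOVA0134, where Wnt7acre replicate 3 was the only control, the ePRBoe mean was above it by 0.28. The ePRAoe call was lost without the run term (adjusted p = 0.158) and without replicate 2 or 3 of either genotype (0.0651 to 0.117).

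Idi1, the isomerase that follows, was low throughout (9 to 65 reads): its means were 0.557 ± 0.21, 0.946 ± 0.745 and 1.26 ± 0.239 FPKM (SD, n = 3). Its ePRBoe libraries lay above Wnt7acre without overlap, and neither difference passed (0.26, adjusted p = 0.588, and 0.57, adjusted p = 0.361). No Wnt7acre library reached 1 FPKM, so Idi1 entered the test only through the overexpressing genotypes. Fdps, which makes farnesyl diphosphate, had means of 17.5 ± 6.63, 17.4 ± 5.27 and 18.2 ± 3.63 FPKM (SD, n = 3). With the run in the model its differences were 0.01 in ePRAoe (SE 0.18, limma adjusted p = 0.984) and 0.56 in ePRBoe (SE 0.23). The ePRBoe value had an unadjusted p of 0.0402 and did not pass (adjusted p = 0.171). In the annotation 26.7% of its exonic bases are shared with Gm43738 on the same strand.

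Fdft1, squalene synthase, at the step that commits the pathway to sterols, fell in ePRAoe and did not pass in ePRBoe. Its values were 20.3, 23.2 and 18.2 FPKM in Wnt7acre, 12.5, 12.2 and 14.3 in ePRAoe and 11.2, 12.7 and 13.3 in ePRBoe. All 6 libraries of the overexpressing genotypes were below the 3 of Wnt7acre. The difference was −0.62 (SE 0.13, 1.54-fold lower, limma adjusted p = 0.0167) in ePRAoe and −0.56 (SE 0.15, adjusted p = 0.0622) in ePRBoe, and between them 0.05 (SE 0.15, adjusted p = 0.868). The ePRAoe call was lost without replicate 2 or 3 of Wnt7acre or ePRAoe (adjusted p = 0.0617 to 0.0702). In ePRBoe it passed without the run term (−0.68, adjusted p = 0.0126). The gene shares 774 exonic bases (18.3%) with Ctsb, a cathepsin gene on the opposite strand with mean levels of 303.8, 242.1 and 213.2 FPKM in Wnt7acre, ePRAoe and ePRBoe, and whether the counting used strand is not given in the sources used here, so reads in that stretch cannot be told apart.

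Of the 10 enzymes between squalene and cholesterol, 0 passed in either genotype, and at an unadjusted p under 0.05 there was 1, Ebp in ePRAoe. Ebp, the sterol isomerase, was at 17.1, 28.3 and 17 FPKM in Wnt7acre, 16.5, 8.68 and 8.29 in ePRAoe and 15.2, 13.5 and 15.8 in ePRBoe. The overexpressing genotypes lay below Wnt7acre without overlap, but ePRAoe replicate 1 was only just so (−0.04 within its run, against −1.65 and −0.90 in the others). The fitted differences were −0.86 (SE 0.27, adjusted p = 0.0667) and −0.17 (SE 0.33, adjusted p = 0.789), and without ePRAoe replicate 1 the first was −1.28 (adjusted p = 0.00777). Sc5d, a desaturase of the sterol ring, had a small gap without overlap: 9.29, 9.23 and 10 FPKM in Wnt7acre, 7.24, 7.88 and 8.38 in ePRAoe and 8.79, 8.38 and 8.38 in ePRBoe (−0.25, adjusted p = 0.224, and −0.18, adjusted p = 0.516). The other 8 were Sqle, Lss, Cyp51, Tm7sf2, Msmo1, Nsdhl, Hsd17b7 and Dhcr7, and their genotypes overlapped in both comparisons. Their differences ranged from −0.51 (Hsd17b7) to 0.33 (Dhcr7) in ePRAoe and from −0.32 (Hsd17b7) to 0.44 (Tm7sf2) in ePRBoe. Nsdhl, a sterol dehydrogenase, differed by 0.01 and 0.11, with means of 10.1 ± 0.492, 10.2 ± 1.36 and 10.2 ± 0.725 FPKM (SD, n = 3).

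Among the regulators and the carrier, Stard4 fell in both genotypes and the other 5 passed in neither, also at an unadjusted p of 0.05. Stard4, which carries cholesterol between membranes and is itself a known SREBP-2 target, was at 14.9, 16.3 and 17.7 FPKM in Wnt7acre, 6.36, 4.05 and 6.61 in ePRAoe and 7.22, 4.47 and 5.91 in ePRBoe, or 289 to 1262 reads a library. The lowest Wnt7acre library was above the highest of the other 6 by a wide margin. Its mean went from 16.3 ± 1.41 FPKM to 5.67 ± 1.41 and 5.87 ± 1.37 (SD, n = 3). The difference was −1.40 (SE 0.22, 2.63-fold lower, limma adjusted p = 0.00675) in ePRAoe and −1.22 (SE 0.27, 2.33-fold lower, adjusted p = 0.0317) in ePRBoe, and between them 0.18 (SE 0.27, adjusted p = 0.745). In ePRAoe Stard4 remained called in all 9 other settings and without each library in turn (highest adjusted p = 0.0421). In ePRBoe leaving out Wnt7acre replicate 3 ended the call (−0.73, adjusted p = 0.324), as did leaving out ePRBoe replicate 2 or 3 or rescaling each library to the same sum (0.0507).

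The SREBP genes themselves passed in neither genotype. Srebf1 (SREBP-1) was at 19.6, 15.5 and 15.5 FPKM in Wnt7acre, 17.8, 22.9 and 15.4 in ePRAoe and 15.4, 16.1 and 19.1 in ePRBoe. Srebf2 (SREBP-2) was at 15.1, 15.7 and 12.7 in Wnt7acre, 15.1, 11.8 and 13.8 in ePRAoe and 13.4, 14.4 and 13.5 in ePRBoe. The genotypes overlapped for both, with differences of 0.13 (SE 0.17) and −0.09 (SE 0.20) for Srebf1 and −0.09 (SE 0.12) and 0.11 (SE 0.15) for Srebf2 in ePRAoe and ePRBoe, at adjusted p of 0.637 or more. Their mRNA levels say nothing of how much protein was cut and nuclear. Scap, the escort, was at 13, 21.2 and 15.4 FPKM in Wnt7acre, 17.2, 12.1 and 14 in ePRAoe and 14.9, 15.5 and 12 in ePRBoe (−0.17 and −0.05, adjusted p = 0.611 and 0.926).

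Insig1, the retention protein that SREBP itself induces, was at 3.7, 5.97 and 7.41 FPKM in Wnt7acre, 4.16, 4.11 and 8.7 in ePRAoe and 3.73, 6.32 and 5 in ePRBoe. Its genotypes overlapped, and its libraries spread widely within each (−0.04, SE 0.26, and −0.16, SE 0.32, adjusted p = 0.946 and 0.795). Insig2, its partner, was at 12.7, 12.2 and 12.8 FPKM in Wnt7acre, 9.5, 13.4 and 14.1 in ePRAoe and 11.1, 11.1 and 9.55 in ePRBoe. The ePRBoe libraries were below Wnt7acre without overlap, and the difference did not pass (−0.31, SE 0.19, adjusted p = 0.359).

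**Figure D3:**
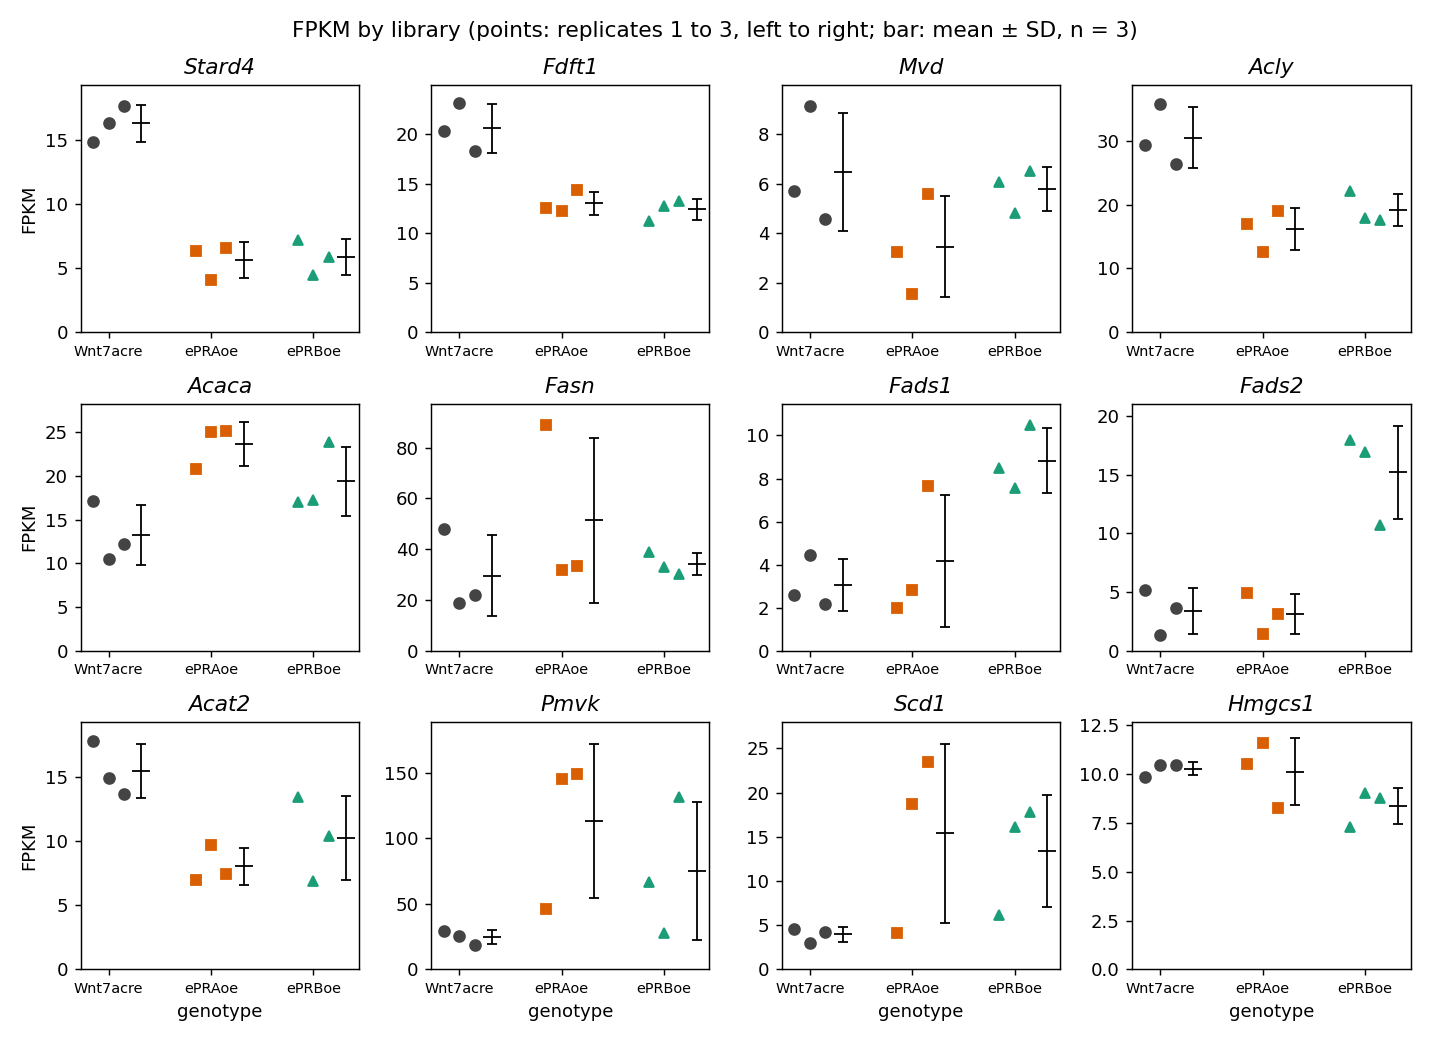
FPKM of 12 genes by library, with replicates 1 to 3 from left to right in each genotype and the mean ± SD (n = 3) beside them. Stard4 lies at 14.9 to 17.7 FPKM in the Wnt7acre libraries and at 4.05 to 7.22 in the other 6, and Fads2 is at 10.7 to 18 FPKM in ePRBoe alone.

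Among the 11 fatty acid genes, 2 rose (Acaca and Fasn) and 1 fell (Acly) in ePRAoe, and 3 rose (Fasn, Fads1 and Fads2) and 0 fell in ePRBoe. Over all genes tested 7.2% rose and 8.98% fell in ePRAoe, and 6.41% and 2.48% in ePRBoe. The median difference of the 11 was 0.23 and 0.52, beside −0.03 and 0.10 over all genes. Of the suppliers of acetyl-CoA, Acly (ATP citrate lyase), which cleaves citrate, was at 29.4, 35.8 and 26.5 FPKM in Wnt7acre, 17, 12.6 and 19.1 in ePRAoe and 22.2, 17.9 and 17.7 in ePRBoe. All 6 libraries with an overexpressed isoform were below the Wnt7acre libraries. Acly fell by 0.88 in ePRAoe (SE 0.14, 1.84-fold lower, limma adjusted p = 0.00675), a call that remained in all 9 other settings and without each library in turn. In ePRBoe it did not pass (−0.38, SE 0.17, adjusted p = 0.202), though it did without the run term (−0.64, adjusted p = 0.0467). Acss2, which makes acetyl-CoA from acetate, ranged from 2.68 to 15.4 FPKM in Wnt7acre, in ePRAoe 7.7 to 25.2 and in ePRBoe 11.9 to 20, and neither difference passed (0.54 and 1.02, adjusted p = 0.268 and 0.132).

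Acaca (acetyl-CoA carboxylase 1) was at 17.1, 10.5 and 12.2 FPKM in Wnt7acre, 20.8, 25 and 25.1 in ePRAoe and 17, 17.2 and 23.9 in ePRBoe. The ePRAoe libraries were all above Wnt7acre, and ePRBoe overlapped it at the top of Wnt7acre. Acaca rose by 0.81 in ePRAoe (SE 0.21, 1.75-fold, limma adjusted p = 0.04), a call lost without replicate 2 or 3 of Wnt7acre or ePRAoe (0.17 to 0.181) or ePRBoe replicate 1 or 2 (0.0606 and 0.064). In ePRBoe the difference was 0.52 (adjusted p = 0.256). Fasn, the fatty acid synthase, was at 47.9, 18.9 and 22.1 FPKM in Wnt7acre, 89, 31.7 and 33.5 in ePRAoe and 38.9, 33.1 and 30.3 in ePRBoe. The genotypes overlapped only through Wnt7acre replicate 1, and replicate 1 of Wnt7acre and of ePRAoe, both of run NS50999, were each the highest of their group. Within runs ePRAoe was above Wnt7acre by 0.88 in NS50999, 0.79 in NS50967 and 0.51 in NOVA0134, and in NOVA0134 ePRBoe was above it by 0.60. With the run in the model Fasn rose by 0.73 in ePRAoe (SE 0.14, 1.65-fold, limma adjusted p = 0.015) and by 0.71 in ePRBoe (SE 0.17, 1.63-fold, adjusted p = 0.0473). Without the run term neither passed (0.73, adjusted p = 0.295, and 0.31, adjusted p = 0.674), and the ePRBoe call was lost in 7 of 9 settings and 7 of 9 times when a library was left out.

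**Figure D4:**
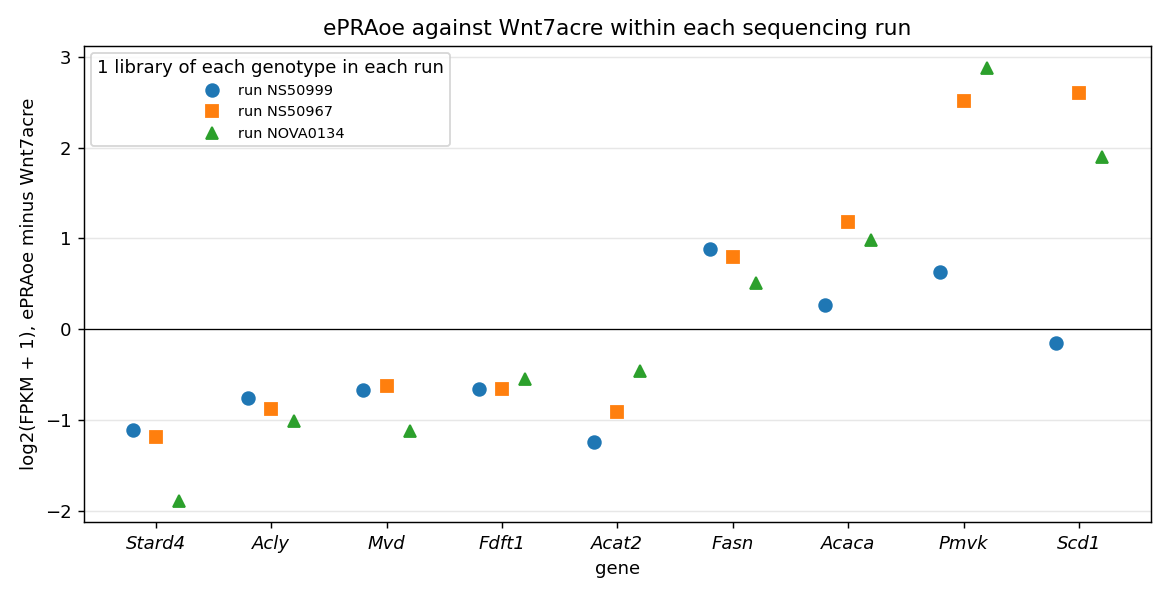
Difference of log2(FPKM + 1) between ePRAoe and Wnt7acre within each of the 3 sequencing runs, from 1 library of each genotype a run. Stard4, Acly, Mvd, Fdft1 and Acat2 are below 0 and Fasn, Acaca and Pmvk above 0 in every run, while Scd1 is at 2.60 and 1.90 in 2 runs and −0.15 in NS50999.

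Of the desaturases, Fads1 and Fads2, the delta-5 and delta-6 enzymes that make polyunsaturated fatty acids such as arachidonic acid, rose in ePRBoe and passed in neither direction in ePRAoe. Fads2 was at 5.14, 1.31 and 3.68 FPKM in Wnt7acre, 4.89, 1.46 and 3.13 in ePRAoe and 18, 16.9 and 10.7 in ePRBoe, or 26 to 357 reads. The ePRBoe libraries were above all 6 others. Fads2 rose by 2.20 in ePRBoe (SE 0.41, 4.59-fold, limma adjusted p = 0.0196), against −0.05 (SE 0.33, adjusted p = 0.942) in ePRAoe, and the difference between the overexpressing genotypes themselves was 2.25 (SE 0.41, adjusted p = 0.0706). The ePRBoe call remained in all 9 other settings and was lost without ePRAoe replicate 2 (1.76, adjusted p = 0.0638) or ePRBoe replicate 1 or 2.

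Fads1 was at 2.59, 4.44 and 2.15 FPKM in Wnt7acre, 1.98, 2.84 and 7.65 in ePRAoe and 8.5, 7.54 and 10.5 in ePRBoe. All ePRBoe libraries were above Wnt7acre, and ePRAoe replicate 3 was just above the lowest of them. Fads1 rose by 1.60 in ePRBoe (SE 0.26, 3.04-fold, limma adjusted p = 0.0136), against 0.23 (SE 0.22, adjusted p = 0.519) in ePRAoe, with 1.38 (SE 0.26, adjusted p = 0.0775) between them. Leaving out Wnt7acre replicate 3 (1.55, adjusted p = 0.132) or ePRAoe replicate 2 (1.63, 0.0553) ended this call. Fads1 (chromosome 19, 10182888 to 10196877, forward strand, mm10) and Fads2 (chromosome 19, 10062765 to 10101746, reverse strand) are neighbours with their start sites facing each other. Within run NOVA0134 the ePRBoe mean was above Wnt7acre replicate 3, the only control there, by 1.63 for Fads1 and 1.76 for Fads2.

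Scd1, a stearoyl-CoA desaturase that makes oleate, was at 4.62, 3.02 and 4.28 FPKM in Wnt7acre, 4.07, 18.7 and 23.4 in ePRAoe and 6.11, 16.2 and 17.8 in ePRBoe. Replicate 1 of each overexpressing genotype was near the Wnt7acre level and the other 4 libraries were well above it. Neither difference passed (1.45, SE 0.55, adjusted p = 0.114, and 1.10, SE 0.67, adjusted p = 0.352), and without ePRAoe replicate 1 the first was 2.25 (adjusted p = 0.0187). Scd2, its paralog, was many times more abundant and passed in neither genotype, at means of 138 ± 38.3, 142 ± 23.4 and 128 ± 8.01 FPKM (SD, n = 3). Since these genes are alike in sequence, reads could be split between them by the counting, for which the sources used here name the tool but not how shared reads were assigned.

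The elongases did not pass. Elovl5 was at 163 to 252 FPKM in Wnt7acre, in ePRAoe 238 to 332 and in ePRBoe 203 to 231, with ePRBoe below ePRAoe without overlap (−0.53, SE 0.20, adjusted p = 0.226). Elovl1, which extends very long chains, had means of 31.7 ± 4.36, 28.2 ± 2.99 and 28.9 ± 2.41 FPKM (SD, n = 3), and Elovl6, which extends palmitate, 2.88 ± 1.21, 3.02 ± 1.35 and 3.56 ± 0.415.

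In mm10, Mvd lies on chromosome 8 (122433601 to 122443422), Fdft1 on chromosome 14 (63145150 to 63179578), and on chromosome 11 Acly (100476353 to 100528000), Acaca (84129672 to 84401651) and Fasn (120805846 to 120824547). These 5 genes are protein-coding and lie on the reverse strand, except Acaca on the forward strand.

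Markers of other cells moved with genotype, and their part in the results above was not tested. In bulk tissue fewer cells of a type and less RNA per cell cannot be told apart. Over all genes tested 7.2% rose and 8.98% fell in ePRAoe, and 6.41% and 2.48% in ePRBoe. Of 18 stroma markers 11 rose and 0 fell in ePRAoe, and 14 rose in ePRBoe, Col6a1 among them in both (1.59 and 2.43, adjusted p = 0.00147 and 0.00169). Their summed level was 127 to 166 FPKM in Wnt7acre, in ePRAoe 289.9 to 471 and in ePRBoe 499 to 647, with none at 0. Of 15 immune markers 4 fell in ePRAoe and 6 rose in ePRBoe, Fcer1g among both (−0.97 and 0.76, adjusted p = 0.00483 and 0.0307), and the sum was 232 to 469.9, 154 to 219 and 459 to 578 FPKM. The stroma, endothelial and smooth muscle sums of every ePRBoe library, where Fads1 and Fads2 rose, were above all 6 others. The immune sum of ePRBoe was above ePRAoe and overlapped Wnt7acre through its replicate 1. Between ePRBoe and ePRAoe limma called 6 of the 15 immune markers higher and 0 lower, beside 0.316% and 0.0081% of all genes. Stard4 was low in both genotypes with a higher stroma sum. Endothelial markers (10) summed to 13.3 to 20.6, 15.3 to 32.9 and 49.6 to 72 FPKM, and of the 7 tested 2 rose in ePRBoe. Smooth muscle markers (6) summed to 11.7 to 21.5, 16.7 to 30.2 and 38 to 119 FPKM, 1 of 4 tested rising in ePRBoe. Gland markers (8) summed to 19.4 to 47.8, 4.85 to 15.8 and 12.2 to 73.3 FPKM, where in ePRAoe Aldh1a1 rose and Spink1 fell. Aldh1a1 was at 1.13, 0.553 and 0.956 FPKM in Wnt7acre, so it entered the test through the genotypes where it is high. The epithelial markers summed to 2497 to 2755, 1971 to 2715 and 2353 to 2592 FPKM. Of these 20, 3 rose and 5 fell in ePRAoe, and 1 rose and 2 fell in ePRBoe. Of 6 red blood cell genes only 1, Alas2, was in the table, at 0.154 to 1.84 FPKM. The level of the absent ones is not known, so red blood cell RNA cannot be judged.

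Genes around these pathways were followed in 5 further lists. Their counts stand beside 7.2% of all genes tested that rose and 8.98% that fell in ePRAoe. In ePRBoe 6.41% of all genes rose and 2.48% fell, with 25.8% at an unadjusted p under 0.05. Of 14 further isoprenoid and sterol-processing genes 2 fell in ePRAoe and 0 passed in ePRBoe, with 3 at an unadjusted p under 0.05 (median 0.00 and 0.04). Nceh1, which frees cholesterol from its esters, fell by 3.22 in ePRAoe (adjusted p = 0.00373), from 70.7 ± 26.3 to 6.94 ± 3.74 FPKM (SD, n = 3). Of 11 tested genes of SREBP processing and the sterol sensor LXR, 1 rose and 1 fell in ePRAoe, and 0 passed in ePRBoe, with 2 at an unadjusted p under 0.05. Mylip, which marks lipoprotein receptors for degradation, fell (−0.69, adjusted p = 0.0261). The gene that rose was Paqr3, which tethers SCAP to the Golgi (1.40, adjusted p = 0.0167). It was at 0.611, 0.09 and 0.755 FPKM in Wnt7acre, 1.33, 5.14 and 2.97 in ePRAoe and 2.23, 3.11 and 2.41 in ePRBoe, so it entered the test only through the genotypes where it is high.

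Of 14 genes of cholesterol uptake, transport and efflux, 3 rose and 4 fell in ePRAoe, and 2 rose and 1 fell in ePRBoe. Abca1, the pump that loads cholesterol onto apolipoprotein, fell from 86.8 ± 19.6 FPKM to 31.6 ± 3.52 with isoform A and 33.8 ± 3.4 with isoform B (SD, n = 3; −1.41 and −1.26, adjusted p = 0.00389 and 0.0162). Vldlr, a lipoprotein receptor, rose from 4.53 ± 1.63 to 14.4 ± 1.51 and 19.9 ± 2.32 FPKM (1.52 and 1.82, adjusted p = 0.00373 and 0.00736). Npc2, which moves cholesterol out of the lysosome, rose in both (1.29 and 1.68, adjusted p = 0.026 and 0.0319), and Abcg1, a second efflux pump, fell in ePRAoe (−1.42, adjusted p = 0.00717).

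Of 16 further fatty acid synthesis genes tested, 1 rose and 5 fell in ePRAoe, and 0 rose and 2 fell in ePRBoe. Me1, the malic enzyme that supplies NADPH, fell from 28.7 ± 10.9 FPKM to 1.81 ± 0.944 in ePRAoe and 4.68 ± 3.02 in ePRBoe (SD, n = 3; −3.41 and −2.04, adjusted p = 0.0024 and 0.0334). Elovl7, an elongase, fell in both (−1.96 and −2.17, adjusted p = 0.00481 and 0.011), and Fads3, the third gene of the desaturase cluster, fell in ePRAoe (−1.60, adjusted p = 0.0138), with −0.72 in ePRBoe (adjusted p = 0.278). Of 18 genes of fatty acid activation and glycerolipid assembly, 2 rose and 5 fell in ePRAoe, and 1 rose and 3 fell in ePRBoe. Acsl4, which activates arachidonic acid, fell from 238 ± 18.8 FPKM to 102 ± 21 and 91.8 ± 14.9 (−1.23 and −1.51, adjusted p = 0.00499 and 0.00902). Gpam and Agpat5, which add fatty acids to the glycerol backbone, fell in both genotypes as well. The differences were −1.12 and −1.15 for Gpam (adjusted p = 0.00463 and 0.0133) and −1.29 and −1.52 for Agpat5 (adjusted p = 0.0044 and 0.00893).

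The spread between replicates was wider for the 35 genes than for all genes tested. The median SD of log2(FPKM + 1) was 0.32 in Wnt7acre, 0.41 in ePRAoe and 0.17 in ePRBoe, beside 0.24, 0.27 and 0.16 over all genes. The member with the largest SD was Acss2 in Wnt7acre (1.11), Scd1 in ePRAoe (1.23) and Pmvk in ePRBoe (1.11). The ePRBoe libraries all came from 1 run. Within the 3 runs, 5 of the 35 genes were higher in ePRAoe every time (Mvk, Pmvk, Acaca, Fasn and Elovl5), as were 20.8% of all genes. Another 9 were lower every time (Acat2, Mvd, Fdft1, Sqle, Hsd17b7, Ebp, Sc5d, Stard4 and Acly), as were 24.4% of all genes, and 21 differed in sign between runs.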

How the data were processed

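The deposited table holds FPKM, computed by the authors, for 15158 genes and 9 libraries, per the file headers. Alignment was with STAR 2.5.2b (mm10) and counting with featureCounts 1.5.0-p1 of Subread, and the later tools were edgeR 3.28.0 and limma 3.42.2, all per the submitters' processing notes. Which annotation, strand setting and gene lengths lay behind the FPKM is not given in the sources used here. Values were taken as log2(FPKM + 1), which understates changes of low genes. A gene entered the test with 1 FPKM or more in 3 or more libraries, which kept 12347 and left out 2811. limma 3.58.1 (R 4.3.3) fitted all 9 libraries by genotype and sequencing run with trended variances (4 residual and 3.64 prior degrees of freedom), two-sided, with Benjamini-Hochberg adjustment over all genes. The run is the first part of each description label. The procedure was tested on simulated data. Positions came from GENCODE M21 (mm10) and promoters from RefSeq. The depth is not stated, so no counting intervals were computed. The alternatives were other scalings, a pseudocount of 0.1, other filters on low values, no run term, a replicate block, no variance trend and leaving out each library.

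All 35 genes are named. Given with every library's value are those called in any comparison, the regulators and those not overlapping with Wnt7acre in both comparisons. Hmgcs1, Pmvk and Scd1, and outside the 35 Plin2 and Dgat2, were added after their values were seen. From each other pathway list the called genes with the smallest p were named, up to 3 per comparison, and marker lists are given mainly by counts and sums. A gene that this rule picks is not reported here. The members and lists were chosen with earlier results of these data known. The replicate numbers were not treated as pairs.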

Additional observations from a re-analysis of the deposited data

How the results depend on the processing

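Of the called differences, Stard4 and Acly in ePRAoe kept their call in every setting and without each library in turn. The number of the 35 genes called in ePRAoe was 6 and lay between 5 and 7 in the other settings except the replicate block. Deviations of same-numbered libraries correlated at −0.23 to 0.171 over 9 pairs. For libraries of the same run the values were 0.03 to 0.18 between ePRAoe and Wnt7acre (3 pairs). Pairs of ePRBoe with the other genotypes in NOVA0134 lay at −0.26 to 0.31. With 3 libraries a genotype such values cannot settle whether the numbers, or the runs, pair the samples. With the replicate number as a block in place of the run 3 genes were called in ePRAoe, all lower, and Acaca (adjusted p = 0.0559), Fasn (0.104) and Mvd (0.209) were not, while in ePRBoe 3 genes were called, 2 of them shared with the 4 (Stard4 and Fads2), and in ePRBoe against ePRAoe 0. In ePRBoe the block ended the calls of Fads1 (1.31, adjusted p = 0.0636) and Fasn (0.31, 0.446), and Fdft1 passed (−0.68, 0.0301). In ePRBoe the count was 4, lay between 2 and 5, and was 2 with each library rescaled to the same sum, where Stard4 (adjusted p = 0.0507) and Fasn (0.0757) were not called. Leaving out 1 library gave 2 to 10 genes in ePRAoe: 2 without Wnt7acre replicate 2 or ePRAoe replicate 3, 3 without Wnt7acre replicate 3 or ePRAoe replicate 2, and 10 without replicate 1 of either. It gave 1 to 4 in ePRBoe: 1 without Wnt7acre replicate 3, ePRAoe replicate 2 or ePRBoe replicate 2, and 2 without ePRBoe replicate 1 or 3. Between ePRBoe and ePRAoe it gave 0 to 3, the 3 (Mvd, Fads1 and Fads2, all higher in ePRBoe) without replicate 1 of Wnt7acre or ePRAoe. Replicate 1 of these genotypes shares a run, so leaving out either leaves the other alone in it. The cause of these shifts was not tested. No called difference changed sign in any setting. Over all genes the median difference moved from 0.10 to −0.03 in ePRBoe against Wnt7acre, and from 0.15 to −0.03 in ePRBoe against ePRAoe, with quantile normalization. Low counts limit Idi1 most, with 9 to 65 implied reads a library.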

Other observations

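Scd2 exceeded Scd1 in all libraries, but by unequal amounts. The ratio of their FPKM was 36.9, 31.7 and 34.6 in Wnt7acre (replicate 1 first), 39.8, 7.87 and 4.96 in ePRAoe and 22.5, 7.68 and 6.9 in ePRBoe. The ratio was highest in ePRAoe replicate 1 and lowest in replicates 2 and 3 of both overexpressing genotypes.

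Of 15 immediate early and heat shock genes, 3 rose (Fos, Egr1 and Dusp1) and 1 fell (Hspb1) in ePRAoe, and 0 passed in ePRBoe, with 2 at an unadjusted p under 0.05. The shares of all genes tested were 7.2% and 8.98% in ePRAoe, and in ePRBoe 25.8% at that unadjusted p. Fos, an immediate early transcription factor, was at 5.551, 3.279 and 4.11 FPKM in Wnt7acre, 20.4, 125 and 16.5 in ePRAoe and 9.3, 14.3 and 15.8 in ePRBoe. In ePRAoe 1 library, replicate 2, stood far above the others for Fos, and it was also the highest for Dusp1 (97.9 FPKM, against 25.4 and 37.9) and Egr1 (45.4, against 12.7 and 15.6).

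Plin2, which coats lipid droplets, rose in ePRBoe (1.15, limma adjusted p = 0.0256), from 46.9 ± 16.7 FPKM in Wnt7acre to 82.3 ± 18 (SD, n = 3). The libraries overlapped, with Wnt7acre replicate 1 at 66.1 FPKM and ePRBoe replicate 3 at 62.0. In ePRAoe Plin2 stood at 51.7 ± 14 (0.16, adjusted p = 0.614). Dgat2, which completes triglycerides, rose in ePRAoe (0.98, adjusted p = 0.0475), from 127 ± 19.2 to 257 ± 66.3 FPKM, with a difference of 0.58 in ePRBoe (adjusted p = 0.321). Its libraries lay above Wnt7acre without overlap in both genotypes. Neither Plin2 nor Dgat2 was followed in the other settings.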
